A study of Drosophila melanogaster with 3 samples.

Results

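Peaks of GFP-tagged Blimp-1 at single protein-coding promoters were taken from the list of peaks that the authors had thresholded on the irreproducible discovery rate (IDR, a measure of agreement between replicates). A peak belonged here when its summit, the point of highest signal in the peak, lay no farther than 500 bp from a transcription start site (TSS) of exactly 1 protein-coding gene. Of 9515 peaks, 2036 met this rule (21.4%, 95% Wilson interval 20.6 to 22.2%), and they marked 1667 of 13945 protein-coding genes. Another 675 summits lay within 500 bp of TSSs of several protein-coding genes, 276 lay near TSSs of noncoding RNA genes alone, and 6528 lay within 500 bp of no TSS. The choice used position only, not the strength or the sequence of a peak.

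The data came from chromatin immunoprecipitation and sequencing (ChIP-seq) of whole Drosophila melanogaster embryos aged 10 to 12 h. All 3 biological replicates came from the same transgenic line, strain Blimp-1-GFP, in which GFP is fused to the C-terminus of Blimp-1, and they form 1 group with no second condition. The protein was precipitated through its GFP tag from chromatin sheared to 200 to 800 bp, so a peak averages over all tissues of the embryo. Whether the line also carried an untagged copy of the gene is not given in the sources used here.

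Blimp-1 is the fly homologue of PRDM1, a zinc finger protein that binds GAAAG-containing DNA and is best known as a repressor of transcription in mammalian lymphocytes and germ cells. In Drosophila it is induced by the steroid hormone ecdysone, times the expression of the nuclear receptor gene ftz-f1, and acts in the tracheal system and the epidermis that forms the cuticle. A core promoter is the stretch around the TSS at which RNA polymerase II starts. Fly core promoters carry short words that are recognised by different factors, among them the TATA box and the initiator at genes used in particular tissues, and the words bound by DREF and M1BP at broadly expressed genes.

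The sequences below are from strong summits, in order of strength, that carried a word recognised by Blimp-1, shown because this word was concentrated at the summits. The Blimp-1 site was searched on both strands as AGTGAAAG or AGCGAAAG. Each sequence is read 5′ to 3′ along the strand of the gene from the Release 6 assembly (dm6), with the matched word in capitals; where the word lay in an exon, 30 bases are shown. The site of CG9119 (chr3L:1205087-1205184, minus strand) lay 340 bp upstream of the TSS. That of CG42673 (chr3L:9547029-9547126, plus strand) lay 142 bp upstream of the TSS and was read on the opposite strand. The sites of Ald1, which encodes the glycolytic enzyme aldolase (chr3R:26259124-26259153, minus strand), and Osi17, of the Osiris gene family (chr3R:6311831-6311860, plus strand), lay 74 and 73 bp downstream of the TSS, both in the 5′ UTR.
CG9119: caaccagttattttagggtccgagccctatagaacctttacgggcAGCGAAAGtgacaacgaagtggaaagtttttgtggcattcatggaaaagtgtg
CG42673: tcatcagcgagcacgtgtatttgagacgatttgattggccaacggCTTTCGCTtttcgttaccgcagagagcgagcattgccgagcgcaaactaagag
Ald1: gcggcaataaaAGTGAAAGttaccacgtca
Osi17: caagcgtaaaaAGTGAAAGacacaacggat
At CG9119 the capitals run on into tga, so that the same place also holds the PRDM1 word, searched as GAAAGTGA or GAAAGCGA on both strands, which shares the letters GAAAG with the Blimp-1 site. At Ald1 and Osi17 the word is preceded by aaa, and at Ald1 it is followed by tta.

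The next sequences carry words known from core promoters and show where each lay relative to the summit and the TSS. The DREF word is TATCGATA, the M1BP word is GGTCACAC and the TATA box was searched as TATAAA, each on both strands. No set distance from the TSS was required, so a TATAAA match need not be a working TATA box. The DREF word of Tsp97E, a tetraspanin gene (chr3R:26964818-26964872, minus strand), was centred 6 bp upstream of the TSS. The M1BP word of glec, which encodes the glycoprotein gliolectin (chr3R:21856267-21856359, minus strand), lay 44 bp upstream of the TSS, and that of CG7889 (chrX:19243618-19243647, plus strand) lay 1 bp downstream of the TSS. The M1BP word of CG11382 (chrX:1209631-1209728, plus strand) lay 290 bp upstream. The TATAAA words nearest the summits of CG18549 (chr3R:12449109-12449204, plus strand) and Ptpmeg2, a tyrosine phosphatase gene (chrX:9640801-9640896, minus strand), lay 139 and 224 bp upstream of the TSS, the second of them read on the opposite strand.
Tsp97E: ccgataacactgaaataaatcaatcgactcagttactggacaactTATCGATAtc
glec: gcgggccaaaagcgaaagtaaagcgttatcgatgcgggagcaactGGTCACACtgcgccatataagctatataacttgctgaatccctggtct
CG11382: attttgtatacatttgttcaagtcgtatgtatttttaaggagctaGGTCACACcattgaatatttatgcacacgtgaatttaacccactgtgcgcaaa
CG7889: ttttggtaattGGTCACACtgctctccaag
CG18549: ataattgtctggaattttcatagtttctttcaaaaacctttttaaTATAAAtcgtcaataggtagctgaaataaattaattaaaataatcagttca
Ptpmeg2: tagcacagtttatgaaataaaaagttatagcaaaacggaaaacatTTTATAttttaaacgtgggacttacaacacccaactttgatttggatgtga
The glec sequence also holds the Blimp-1 site in lower case, in agcgaaagt, 2 words of different factors within 1 window. The M1BP word of glec, CG11382 and CG7889 was read on the strand of the gene.

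Summits lay mostly upstream of the TSS. The median offset was 132 bp upstream, written -132 bp, with quartiles of -258 and +30 bp. In the 3 replicates, each reduced to its 9515 strongest peaks and assigned by the same rule, the median was -129, -126 and -129 bp (mean -128 ± 1.73 bp, SD, n = 3). The summit was upstream in 1454 peaks (71.4%), downstream in 577 (28.3%) and on the TSS base in 5. Within 50 bp of the TSS lay 275 summits (13.5%), and 446 (21.9%) lay between 100 and 200 bp upstream. The fullest 50-bp bins were those from -200 to -150 bp (226 peaks) and -150 to -100 bp (224 peaks). Beside the TSS, the bins from -50 to 0 bp and from 0 to +50 bp held 156 and 119 peaks. At more than 100 bp downstream there were 350 summits (17.2%; replicates 17.4 ± 2.03%). The counts fell to 25 peaks between +300 and +350 bp and 29 between +350 and +400 bp, and were 51 between +400 and +450 bp. The peak interval itself, with a median width of 407 bp, covered the TSS in 1007 peaks (49.5%; replicates 49.5 ± 3.34%).

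**Figure D1:**
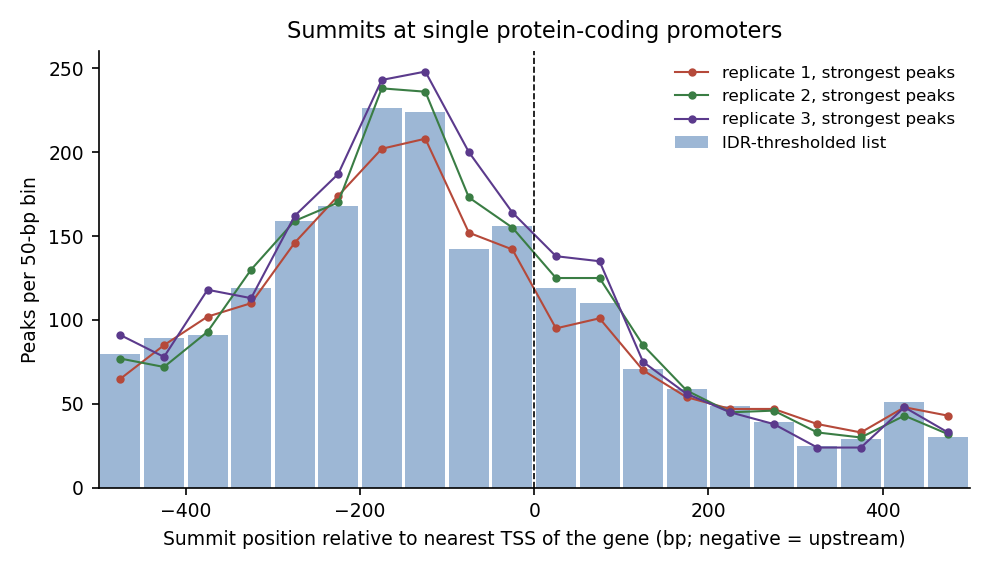
Number of summits per 50-bp bin (vertical axis) against the summit's position relative to the nearest TSS of its gene in bp (horizontal axis, negative upstream), for the IDR-thresholded list (bars) and for the strongest peaks of each of 3 replicates (lines). The fullest bins lie between -200 and -100 bp in the list, and all 3 lines are highest over the same bins.

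Matched peaks had similar offsets in the replicates. Of the 2036 peaks, 1408 (69.2%, 67.1 to 71.1%) had a match within 100 bp in each of the 3 replicates, and 17 (0.835%) had none. The share matched in all 3 was 68.3% for peaks shared by several promoters and 70.2% for peaks at no TSS. In the 1408 matched peaks, chosen for a replicate summit within 100 bp of the listed one in all 3, the median SD of the offset over replicates was 15.9 bp, and in 1345 of them (95.5%) the 3 summits lay on the same side of the TSS.

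Many of the promoters were not the first of their gene. In 667 peaks (32.8%; replicates 31.7 ± 1.43%) the TSS lay more than 500 bp inside the gene from its outermost TSS. The annotation holds 19607 distinct TSSs for 13945 protein-coding genes. The share of all these TSSs that are internal in the same sense was not computed. Genes with a peak had a median of 2 annotated TSSs and a median length of 6176 bp, whereas genes with no summit within 500 bp of a TSS had 1 TSS and 1932 bp. Genes with a single annotated TSS held 795 of the peaks (39.0%), and they were 73.5% of all protein-coding genes. The first share is of peaks and the second of genes. The rule counts a summit near any TSS, so a gene with more TSSs has more sequence in which to meet it. The part of the rule in these differences was not tested. Each listed summit was counted as a peak, and 189 of the 2036 (9.28%) had an interval that held more than 1 listed summit. Counted this way, there were 1382 genes with 1 peak, 225 with 2, 43 with 3, 10 with 4 and 7 with 5. Those with 5 were Ptpmeg2, Rtnl1, a reticulon of the endoplasmic reticulum, RapGAP1, which turns off the GTPase Rap1, SNF4Agamma, a subunit of the AMP-activated kinase, pyd, a scaffold of adherens junctions, Rgl and CG8172. At Rtnl1 all 5 summits lay upstream of a TSS, at -139 to -339 bp, and those at -139 and -339 bp lay in the same peak interval. At Ptpmeg2 the offsets were -239, -199, -177, -37 and +89 bp.

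The strength of a peak was the signal value of the authors' lists, used here only to rank peaks within a list. Peaks at single promoters had signal values from 208.2 to 16283, with a median of 466.5 and quartiles of 290.9 and 964.0. Their median rank in the list of 9515 was 4351, between 3676 for peaks shared by several promoters and 5006 for peaks at no TSS. In the replicate lists the median ranks of the 3 classes stood in the same order in each replicate, at 4003, 4611 and 4610 for single promoters, 3568, 3987 and 3940 for shared promoters, and 5082, 4910 and 4946 for no TSS. Of the 952 strongest peaks of the list, 284 were at single promoters. That was 13.9% of the class (replicates 13.5 ± 0.233%), against 15.9% of shared-promoter peaks (15 ± 1.49%) and 8.09% of peaks at no TSS (8.15 ± 0.0744%). Just inside the distance limit, 110 summits 450 to 500 bp from the TSS had a median signal value of 521.3, and just outside it 111 summits at 501 to 550 bp had 531.0.

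Stronger peaks lay farther upstream. In 5 groups of 407 or 408 peaks, from the strongest to the weakest, the median offset was -174, -145, -117, -97 and -94.5 bp. The share matched in all 3 replicates fell along the same groups from 99.3% to 94.8%, 86.0%, 56.5% and 9.31%. The replicate lists had been reduced to their 9515 strongest peaks, which itself removes matches of weak peaks, and in the full lists 89.3% of all 2036 peaks were matched in all 3. The summits 500 to 200 bp upstream (713 peaks) had a median signal value of 521.9, those 199 to 51 bp upstream (585) 501.4, those within 50 bp of the TSS (275) 363.2, and those 51 to 500 bp downstream (463) 436.1. No test was made of these differences.

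The strongest single-promoter peaks lay at genes of varied function. The summit at GstE13, which encodes a glutathione S-transferase, was 6 bp downstream of the TSS and ranked 2 in the list, and 2, 2 and 3 in replicates 1, 2 and 3. At Mgat2, an N-acetylglucosaminyltransferase of N-glycan synthesis, the summit lay at +110 bp with rank 9 (14, 6 and 6 in the replicates). These were the strongest of the class, and both lay downstream of the TSS. The next were cu (curled), at -288 bp with rank 17 (19, 26 and 17), Mhcl, a myosin heavy chain-like gene, at +465 bp with rank 18 (13, 19 and 31), and CG9737 at -329 bp with rank 19 (34, 16 and 15). Tsp97E followed at -29 bp with rank 20 (27, 24 and 20), with the DREF word printed above. The gene sona, a secreted ADAMTS metalloprotease, had its summit at -191 bp with rank 21 (38, 15 and 21), and px (plexus), a gene of wing vein patterning, at -206 bp with rank 24 (48, 21 and 18). The order of these genes changed from replicate to replicate, but all were among the 50 strongest peaks of each. CG9119 stood at -358 bp with rank 27 (24, 32 and 41), Ugalt, a UDP-galactose transporter, at -36 bp with rank 28 (36, 25 and 25), CG14100 at -97 bp with rank 29 (31, 28 and 26), and jing, a zinc finger transcription factor, at -234 bp with rank 30 (29, 27 and 44). Of these 12 summits, 9 were upstream of the TSS, and 1, that of CG9119, held the Blimp-1 site within 50 bp. The PRDM1 word was within 50 bp of 5 of them, those of Mgat2, Mhcl, CG9737, sona and CG9119.

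The Blimp-1 site was concentrated at the summits, although few peaks held it. It lay within 50 bp of 110 of the 2036 summits (5.40%, 4.50 to 6.47%), against 22 (1.08%) in windows of the same width 500 bp upstream along the gene (ratio 5.0, two-sided exact McNemar test with Benjamini-Hochberg adjustment over 13 patterns, adjusted p = 1.03e-14). The replicates held it in 6.12, 4.85 and 4.46% (mean 5.14 ± 0.867%), all above their flanks (1.06 ± 0.0682%). The flank 500 bp downstream also held 22. The PRDM1 word lay at 138 summits (6.78%) and in 16 upstream flanks (ratio 8.62, exact McNemar test, adjusted p = 1.02e-24), and 37 summits held both words. For comparison, in windows of the same width placed 132 bp upstream of the outermost TSS of each protein-coding gene, 0.896% held the Blimp-1 site. No summit of the class had another listed summit within 100 bp, so no match was counted at more than 1 peak of the list. Peaks are not replicates of a condition, and these tests speak of the peaks of this list.

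The site clustered around the summit without a fixed place. Of 115 matches centred within 50 bp of a summit, 66 lay within 20 bp of it, and 56 more matches lay between 50 and 100 bp. The fullest 10-bp bin was 10 to 20 bp downstream of the summit along the gene, with 26 matches, against 10 in the bin 10 to 20 bp upstream. In all, 78 of the 115 lay downstream of the summit and 37 upstream. The excess was 47 against 12 where the summit lay downstream of the TSS and 31 against 25 where it lay upstream, and it was present for genes on the plus strand of the chromosome (41 against 13) and on the minus strand (37 against 24). The PRDM1 word lay downstream of the summit in 84 and upstream in 60 of 144 matches. The Blimp-1 site was read on the strand of the gene in 73 matches and on the opposite strand in 42.

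**Figure D2:**
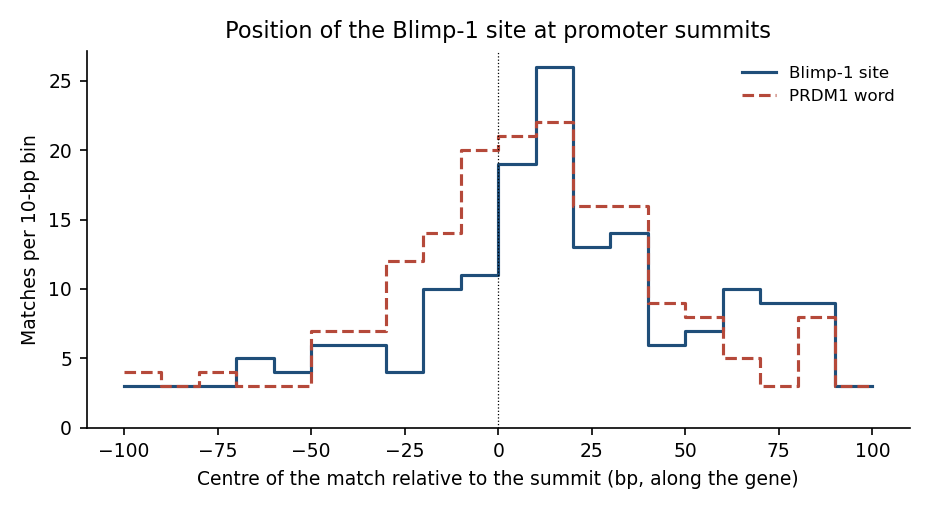
Matches of the Blimp-1 site (solid line) and the PRDM1 word (dashed line) per 10-bp bin (vertical axis) against the distance of their centre from the summit in bp along the gene (horizontal axis, positive downstream), over 2036 peaks. Both lines are highest within 20 bp of the summit, and the Blimp-1 site reaches 26 matches between 10 and 20 bp downstream.

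The bases beside the site were uneven. Among 112 matches lying wholly within 50 bp of a summit, the base just before the word was A in 58.9% and the base just after it was T in 62.5%, with G after it in 1.79%. Among 1077 matches within 500 bp of the outermost TSS of genes that had no summit near any TSS, the same positions were A in 36.5%, T in 29.7% and G in 18.1%. A before and T after the word occurred together in 43 of 112 (38.4%) and in 120 of 1077 (11.1%). The second base before the word was A in 57.1% against 33.1%, and the third was G in 47.3% against 29.8%. The variable base within the word was T in 58.9% of the summit matches and in 47.2% of the others. These shares are descriptions and were not tested.

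The Blimp-1 site was more frequent at summits downstream of the TSS than at summits upstream of it. It lay at 50 of the 463 summits 51 to 500 bp downstream (10.8%, 8.29 to 14%), against 46 of the 1298 summits 51 to 500 bp upstream (3.54%, 2.67 to 4.69%). The odds ratio was 3.30 (two-sided Fisher's exact test, adjusted over 4 patterns, adjusted p = 6.46e-08). In replicates 1, 2 and 3 the downstream share was 11.7, 9.13 and 10.5% (mean 10.4 ± 1.27%), and the upstream share was 3.94, 3.56 and 2.92% (3.47 ± 0.517%), so the ranges did not overlap. The PRDM1 word showed the same order, with 12.7% downstream and 4.62% upstream (odds ratio 3.01, Fisher's exact test, adjusted p = 6.46e-08). This split was chosen after its values had been seen. The background of the Blimp-1 site was alike on both sides: among 11088 genes with no summit near a TSS, windows at +186 bp, the median offset of the downstream summits, held the site in 1.02%, and windows at -218 bp, the median of the upstream ones, in 1.04%. For the PRDM1 word these shares were 1.02 and 0.758%. GC content differed between the sides, with a median of 42.6% within 50 bp of downstream summits and 31.7% at upstream ones, and its part in the result was not tested.

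Most of the downstream summits lay in untranslated leader sequence. By the annotation, 293 of the 463 (63.3%) lay in a 5′ UTR, 149 (32.2%) in an intron and 16 (3.46%) in a coding exon. The site was present at 35 of the 293 summits in 5′ UTRs (11.9%) and at 12 of the 149 in introns (8.05%). Of 60 site matches that lay downstream of the TSS, 41 were read on the strand of the gene and 19 on the opposite strand, whereas upstream of the TSS the counts were 32 and 23. The following were picked after their values had been seen, as the strongest downstream summits with the site and those at genes of known metabolic role. The strongest was that of Aldh-III, an aldehyde dehydrogenase gene, at +240 bp with rank 41 (32, 48 and 60 in the replicates). Ald1 followed at +59 bp with rank 108 (109, 110 and 116), Osi17 at +69 bp with rank 130 (166, 115 and 113) and Pmvk, which encodes phosphomevalonate kinase, at +162 bp with rank 173 (146, 198 and 245). Further down the list, fbp, the fructose-bisphosphatase of gluconeogenesis, had its summit at +65 bp with rank 580 (544, 542 and 669), and Ldh, lactate dehydrogenase, had its summit at +424 bp in an intron with rank 962 (817, 885 and 1120).

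Peaks with the site were stronger than peaks without it. Of the 110, 26 (23.6%) were among the 952 strongest of the list, against 258 of 1926 (13.4%; odds ratio 2.00, two-sided Fisher's exact test, p = 0.00440). The shares were 21.7, 23.3 and 26.3% with the site and 12.8, 13.3 and 12.8% without it in the 3 replicates. The median signal value was 577.6 with the site and 461.8 without it, and the median offsets were +5.5 and -136 bp.

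The DREF and M1BP words lay close to the TSS. The DREF word was within 50 bp of 27 summits (1.33%) and the M1BP word within 50 bp of 18 (0.884%). Of the summits with the DREF word, 85.2% lay within 100 bp of the TSS, as did 83.3% of those with the M1BP word and 26.0% of all 2036. Matches of the DREF word had a median position of -37.5 bp from the TSS, and 83.9% were upstream of it. Among the 275 summits within 50 bp of the TSS, 16 held the DREF word (5.82%) and 11 the M1BP word (4.0%), and among the 463 downstream summits neither word occurred (upper 95% Wilson limit 0.823%). The tests of downstream against upstream summits did not pass for either word (Fisher's exact test, adjusted p = 0.103 for DREF and 0.20 for M1BP). Against their own upstream flank, which for a summit upstream of the TSS lies outside the core promoter, neither passed either (ratios 2.08 and 1.38, adjusted p = 0.125 and 0.559, exact McNemar test). Against the downstream flank both passed the exact McNemar test, with ratios of 27 (adjusted p = 7.02e-07) and 6.0 (adjusted p = 0.00387). For most summits that flank lies inside the gene, so place at the summit and nearness to the TSS cannot be told apart here. In genes with no summit near a TSS, the DREF word was at 0.253% of windows at +186 bp and 1.23% at -218 bp. The M1BP word was at 0.352 and 0.731%. At the outermost promoter of a gene 26 of 1369 summits held the DREF word (1.90%), and at internal promoters 1 of 667 did.

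**Figure D3:**
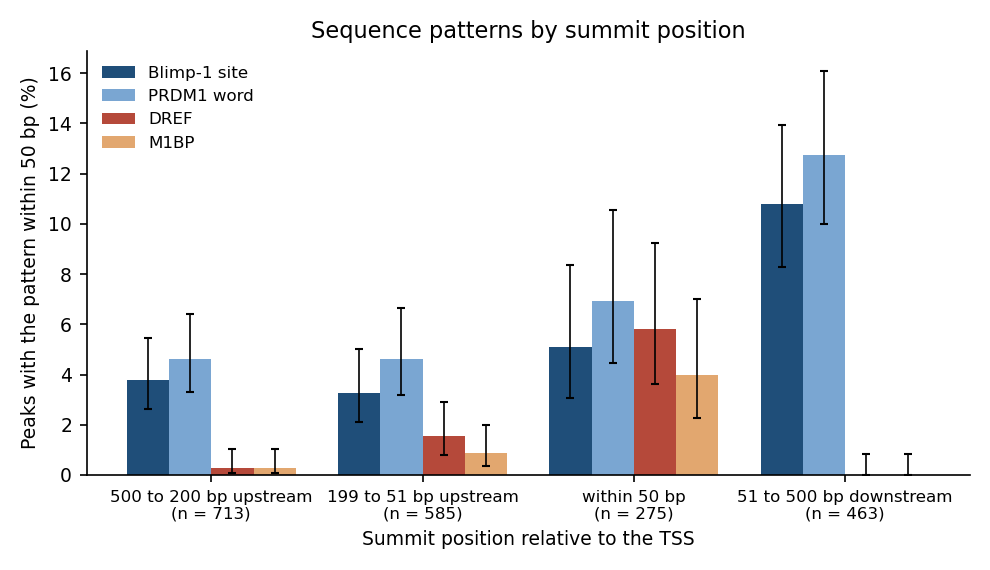
Share of summits with each of 4 patterns within 50 bp in percent (vertical axis) in 4 zones of summit position relative to the TSS (horizontal axis), with 95% Wilson intervals as error bars. The Blimp-1 site and the PRDM1 word are highest in the downstream zone, at 10.8 and 12.7%, while the DREF and M1BP words are highest within 50 bp of the TSS, at 5.82 and 4.0%.

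The initiator and the TATA box followed the position of the summit as well. The initiator, searched as TCAGTT or TCAGTC, was within 50 bp of 29.5% of the summits that lay within 50 bp of the TSS, and of 7.71% of those 500 to 200 bp upstream. The TATA box ran the other way, with 5.45% within 50 bp of the TSS and 22.6% in the zone 500 to 200 bp upstream, where the median GC content was 30.7% against 48.5% at the TSS. Its matches had a median position of -193.5 bp from the TSS, with 249 on the strand of the gene and 233 on the opposite strand. The shares given for the TATA box are thus shares of the word TATAAA at any position. Against the upstream flank, the initiator (11.3% of all summits, ratio 1.24, adjusted p = 0.0963) and the TATA box (17.3%, ratio 1.11, adjusted p = 0.346) did not pass the exact McNemar test. Of 13 patterns, 2 passed against the upstream flank, the Blimp-1 site and the PRDM1 word, and 6 passed against the downstream flank, all higher at the summit. The 6 were the Blimp-1 site, the PRDM1, DREF and M1BP words, the TATA box and the GATA word AGATAA.

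Peaks at single promoters differed in sequence from both other classes. Of 26 comparisons, 13 patterns against each of the 2 classes by two-sided Fisher's exact tests with Benjamini-Hochberg adjustment, 14 passed, 7 with the pattern more frequent at single promoters and 7 with it less frequent. Without replicate 3, with 1510 peaks left in the class, 8 passed. The Blimp-1 site was more frequent than at shared promoters, where 2.22% held it (odds ratio 2.51, adjusted p = 0.00155), and less frequent than at no TSS, where 6.94% did (odds ratio 0.766, adjusted p = 0.0330, Fisher's exact tests). The second difference did not pass without replicate 3 (odds ratio 0.751, exact test, adjusted p = 0.0510). The PRDM1 word took the same middle place, between 2.22% (odds ratio 3.20, adjusted p = 1.58e-05) and 8.32% (odds ratio 0.801, adjusted p = 0.0452, Fisher's exact tests). Its difference from no TSS did not pass when any 1 replicate was left out (odds ratios 0.798 to 0.823). The M1BP word stood in the reverse order, with 2.22% at shared promoters (odds ratio 0.392, adjusted p = 0.0330) and 0.214% at no TSS (odds ratio 4.15, adjusted p = 0.000401, Fisher's exact tests). The first of these did not pass when any 1 replicate was left out (odds ratios 0.514 to 0.758). The DREF word was more frequent than at no TSS (0.184%, odds ratio 7.30, adjusted p = 5.83e-08), and its difference from shared promoters (2.37%, odds ratio 0.554) did not pass Fisher's exact test (adjusted p = 0.117). By the rule, single-promoter summits lie near a TSS and the no-TSS class does not. For both words, class and nearness to a TSS therefore cannot be told apart. At single-promoter summits 1.33% held the DREF word and 0.884% the M1BP word. In windows 132 bp upstream of the outermost TSS of each protein-coding gene, these shares were 1.31 and 0.782%.

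Single and shared promoters also differed in other words. GAGAGA, the word of the GAGA factor, was at 5.99% of single-promoter summits and 1.93% of shared ones (odds ratio 3.25, adjusted p = 5.43e-05), and the initiator was at 11.3 and 6.52% (odds ratio 1.83, adjusted p = 0.00125, Fisher's exact tests). The TATA box was less frequent at single promoters (17.3 against 26.7%, odds ratio 0.575, adjusted p = 3.12e-06), and so was the homeodomain core TTAATTA (4.76 against 7.85%, odds ratio 0.587, adjusted p = 0.0111, Fisher's exact tests). Both flanks of the single-promoter summits held GAGAGA in 5.35%, and it passed the exact McNemar test against neither (adjusted p = 0.551 and 0.483). In windows 132 bp upstream of the outermost TSS of each protein-coding gene, GAGAGA was at 5.45% and the initiator at 8.58%. TATAAA was at 20.3% of those windows and TTAATTA at 6.70%. In windows of 25 bp the initiator and the TATA box no longer passed (exact tests, adjusted p = 0.0532 and 0.0981). Median GC content within 50 bp of the summit was 37.6% at single promoters, 29.7% at shared promoters and 34.7% at no TSS, and its part in the differences of these words was not tested. Against peaks at no TSS, the GATA word AGATAA (6.24 against 7.98%, odds ratio 0.767, adjusted p = 0.0274) and the TATA box (19.7% at no TSS, odds ratio 0.852, adjusted p = 0.0336) were less frequent, and the E-box CAGCTG was more frequent (3.23% at no TSS, odds ratio 1.35, adjusted p = 0.0447, Fisher's exact tests). The GATA and TATA differences did not pass when any 1 replicate was left out (odds ratios 0.787 to 0.840 and 0.844 to 0.891), nor that of the E-box without replicate 3 (1.28). The words of Grainy head (AACCGGTT), AP-1 (TGACTCA or TGAGTCA) and Zelda (CAGGTA) passed in none of the comparisons with flanks or classes. The direction was the same in 3 of 3 replicates for each difference that passed.

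**Figure D4:**
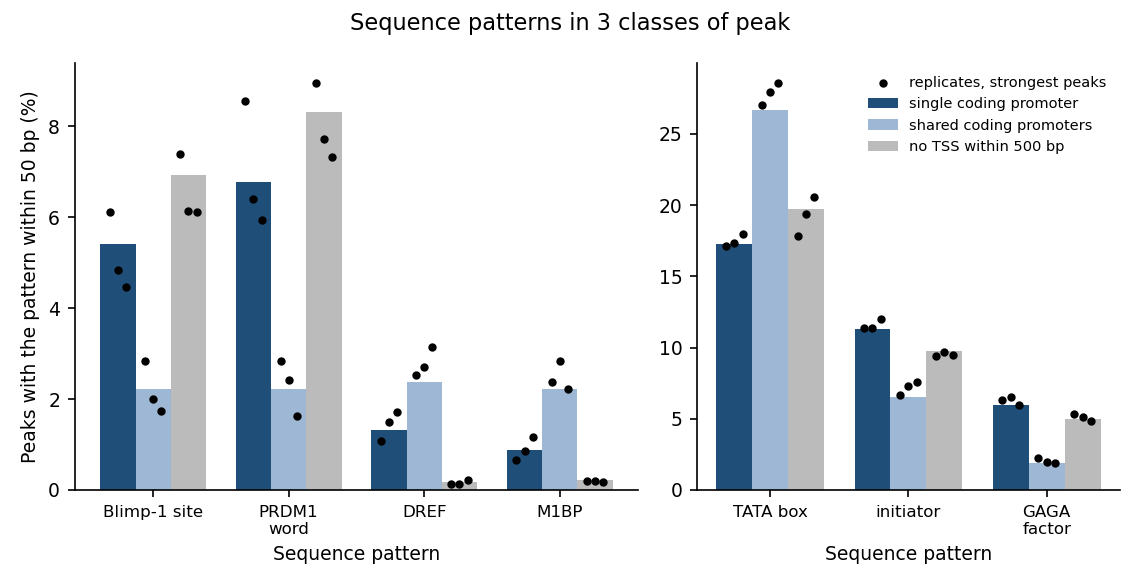
Share of summits with each of 7 patterns within 50 bp in percent (vertical axis) for peaks at single protein-coding promoters, at shared protein-coding promoters and at no TSS (bars), with the strongest peaks of each replicate as points. The Blimp-1 site and the PRDM1 word are lowest at shared promoters and highest at no TSS, and the GAGA word stands at 5.99% at single and 1.93% at shared promoters.

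Genes with a peak at a single promoter included many of the ecdysone response and, in a share that varied with the set of peaks used, of the tracheal system. Over all 13945 protein-coding genes, 12.0% had such a peak (replicates 12.2 ± 0.689%) and 20.5% had any listed summit within 500 bp of a TSS. These shares are the background for the 28 gene lists that follow, which are described without a test. Gene length and number of TSSs, whose medians were higher in genes with a peak, were not taken into account. Some lists share genes, among them the ecdysone and nuclear receptor lists. Where coding genes start within 500 bp of each other, a summit near both TSSs counts only in the second share.

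Of 23 genes of the ecdysone response, 14 (60.9%; replicates 59.4 ± 2.51%) had a single-promoter peak. The strongest was at ftz-f1, at -146 bp with rank 32 (25, 39 and 52 in the replicates), followed by the nuclear receptor gene Hr38 at -116 bp with rank 105 (80, 125 and 159) and Hr4 at -201 bp with rank 120. The ecdysone receptor gene EcR had its summit at -118 bp with rank 2848, the ecdysone-induced Eip75B, Eip78C and Eip74EF at +72, 0 and -134 bp, and Blimp-1 its own at -34 bp with rank 4622. Of 21 nuclear receptor genes, 9 (42.9%) had a peak, 8 of them with a peak among the 4757 strongest of the list. No peak of this class at the 14 ecdysone genes held the Blimp-1 site within 50 bp of its summit (6.6% of all genes with a peak had one that did). The symbols Eip71CD, Eip55E and ImpL3 of the ecdysone list matched no gene of the annotation and were left out. Other symbols of those genes were not searched, so the counts of this list do not cover them. The ftz-f1 summit of rank 32 held the PRDM1 word, and another ftz-f1 summit, at +65 bp with rank 246, had the Blimp-1 site within 100 bp.

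Among 21 genes of tracheal development, 13 (61.9%) had a peak, and in the replicates the share was lower, at 49.2 ± 2.75%. It was 38.1, 33.3 and 33.3% when replicate 1, 2 or 3 was left out. These settings kept only listed peaks matched in both other replicates, so the class held 1621, 1517 and 1510 peaks. Over all coding genes, 9.98, 9.37 and 9.36% were then marked. Loss of a replicate and loss of unmatched peaks cannot be told apart here. Peaks of the tracheal genes were mostly weak, with 4 of the 13 genes among the 4757 strongest peaks. The strongest were those of stumps, an adaptor of the FGF receptor, at -324 bp with rank 939 (1124, 865 and 828) and trh (trachealess), the transcription factor that specifies the trachea, at -359 bp with rank 1210 (1370, 1103 and 1169). Of 13 zona pellucida domain and apical matrix genes, 6 (46.2%) had a peak, with replicates spread widely (46.2 ± 15.4%). Of these, neo had its summit at -497 bp with rank 329 and held the Blimp-1 site, and tyn had its summit at -236 bp with rank 1667.

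Chitin genes were above the background by less, and a pooled list of cuticle structural genes and Osiris genes was near it. Of 37 genes of chitin synthesis and cuticle assembly, 12 (32.4%; replicates 29.7 ± 2.70%) had a peak, among them the chitin deacetylase gene Cda5 at -138 bp with rank 1133, the chitinase gene Cht2 at +155 bp with rank 1703 and the chitin synthase gene kkv at +435 bp with rank 2841. Of 144 structural genes of the cuticle and Osiris genes, 23 (16%, interval 10.9 to 22.8%; replicates 16 ± 1.20%) had one, and 16.7% had any listed summit against 20.5% of all genes. With a TSS distance of 250 bp the share was 8.33% against 9.86%. The strongest peaks of the list lay at the Osiris genes Osi17, Osi2 and Osi5 (ranks 130, 438 and 464). No separate share was computed for the Osiris genes or for the structural genes, so the pooled share describes neither alone. Of the 23 genes, 6 had a peak with the Blimp-1 site: Osi17 at +69 bp, Osi5 at -315 bp, TwdlT at -453 bp, Osi14 at +383 bp, Osi16 at -209 bp and Cpr100A at -253 bp. Over all 1667 genes with a peak, 110 (6.6%) had one with the site. Of the 28 lists, 20 had no gene with the site at a peak of this class, and no other list had more than 1.

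Signalling pathways of patterning were also above the background, and some of their shares fell when 1 replicate was left out. Leaving out a replicate also dropped listed peaks without a match in both others, and the cause of the fall was not tested. Of 24 genes of EGF and FGF receptor signalling 10 (41.7%) had a peak, the strongest that of spi, the EGF ligand Spitz, at -217 bp with rank 569 and the Blimp-1 site. The share was 25% without replicate 3 and 29.2% without either of the others. Of 22 genes of the Notch pathway and E(spl) complex 9 (40.9%) had one, led by E(spl)m7-HLH at -383 bp with rank 579 and E(spl)m3-HLH at -408 bp with rank 764. Of 43 genes of Wnt, Hedgehog and Dpp signalling 11 (25.6%) had one, with the kinase gene sgg at -217 bp (rank 748) and the feedback inhibitor gene nkd at -194 bp (rank 1041). This share was 20.9, 11.6 and 14% without replicate 1, 2 or 3, the second of them close to the 9.37% of all genes in that setting. Lists of other structures and tissues gave 9 of 26 genes for septate junctions and polarity (34.6%; nrv1 at rank 1011 and scrib at rank 1477), 7 of 23 for muscle (30.4%; tin at rank 772 and Mef2 at rank 877) and 2 of 27 for neurons (7.41%; elav at rank 305). Hox and segmentation genes had 2 of 29 (6.90%), and the same 2 genes were the only ones of that list with any listed summit within 500 bp of a TSS.

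Lists of ribosomal, vesicle, translation, chromatin, heat shock and immunity genes ranged from above to below the background. For several of these lists the count of any summit was much higher. Of 93 cytosolic ribosomal protein genes 18 (19.4%) had a single-promoter peak and 44 (47.3%) any summit within 500 bp of a TSS. Their single-promoter summits lay close to the TSS, with a median offset of -28 bp, as at RpL23A (-64 bp, rank 980) and RpL30 (-30 bp, rank 2323). Of 73 mitochondrial ribosomal protein genes 2 (2.74%) had a single-promoter peak and 17 (23.3%) any summit. Rab GTPase and vesicle coat genes had 9 of 70 (12.9%) and 24 (34.3%), with Rab5 at -262 bp (rank 824) and Rab19 at -26 bp (rank 1458) with the DREF word. Translation factors had 7 of 54 (13%), chromatin regulators 8 of 39 (20.5%; ph-p, a Polycomb group gene, at -463 bp with rank 86, and ash1 at +182 bp with rank 1772), heat shock and chaperone genes 6 of 34 (17.6%; Hsp27 at -155 bp with rank 185) and innate immunity genes 7 of 37 (18.9%; cact, the inhibitor of Dorsal, at rank 1005). Without replicate 3 the shares were 7.41% for translation factors, below the 9.36% of all genes in that setting, 12.8% for chromatin regulators and 10.8% for innate immunity. Without replicate 2 they were 12.8% for chromatin regulators, 10.8% for innate immunity and 7.14% for Rab GTPase and vesicle coat genes, the last below the 9.37% of all genes.

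The remaining 8 lists were below 12.0%. They were aminoacyl-tRNA synthetases (2 of 20), cell cycle (4 of 44), detoxification enzymes of the glutathione transferase, cytochrome P450 and UDP-glycosyltransferase families (13 of 155), splicing factors (3 of 36), proteasome (2 of 48), respiratory chain (2 of 87), odorant and gustatory receptors (5 of 230) and vacuolar ATPase (0 of 33). GstE13, the strongest peak of the class, thus belonged to a list with 8.39% of its genes marked. With any listed summit within 500 bp of a TSS, aminoacyl-tRNA synthetases and splicing factors each stood at 25%, above the 20.5% of all genes. The others stood below it, at 18.8% for the proteasome, 18.2% for the cell cycle, 15.2% for the vacuolar ATPase and 14.9% for the respiratory chain. Detoxification enzymes stood at 12.9% and odorant and gustatory receptors at 3.04%. In all, by single-promoter peaks, 17 lists were above the background and 11 below it.

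**Figure D5:**
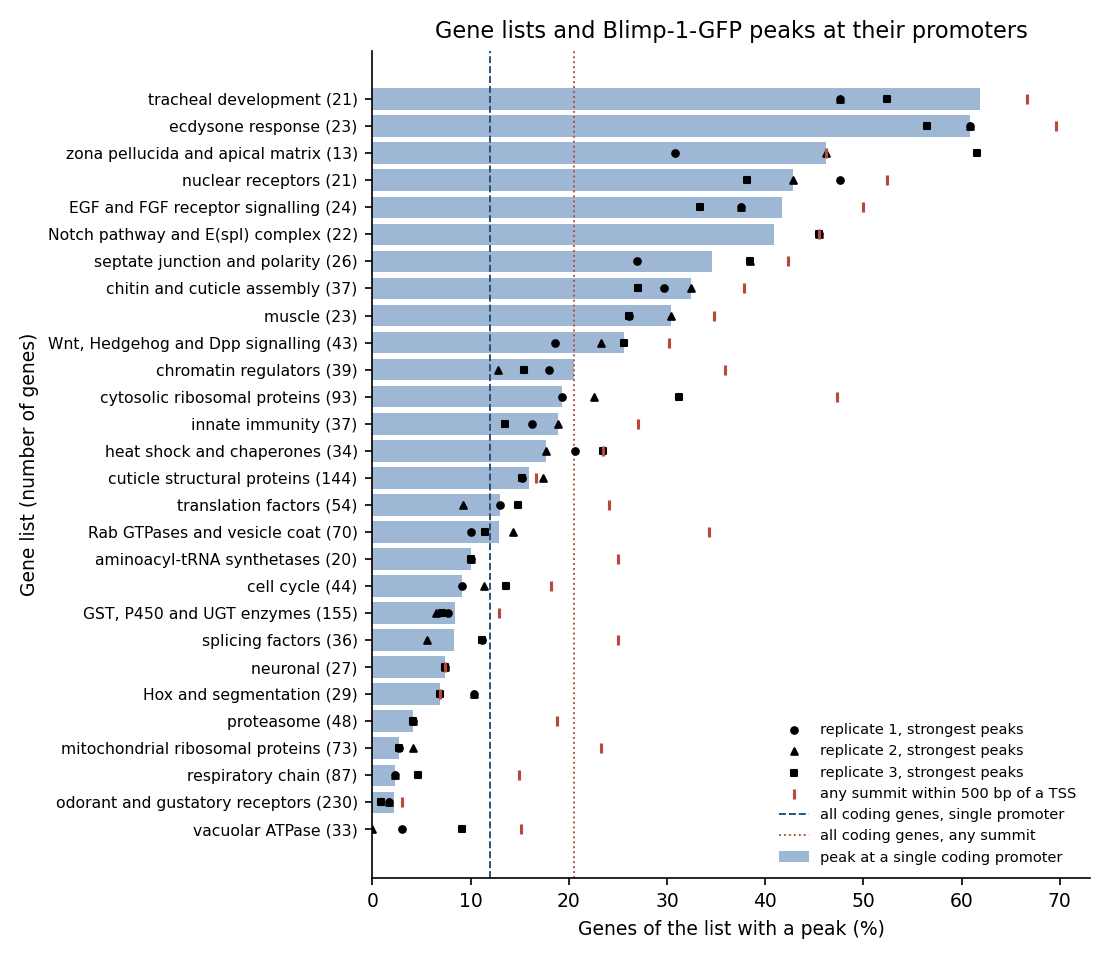
Share of genes in each of 28 lists with a peak at a single protein-coding promoter in percent (bars; horizontal axis, with the lists on the vertical axis and their gene numbers in brackets), with the strongest peaks of each replicate as black points and the share with any summit within 500 bp of a TSS as red ticks. The dashed and dotted lines mark the shares over all protein-coding genes, 12.0 and 20.5%, and the ecdysone and tracheal lists stand at 60.9 and 61.9%.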

How the data were processed

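ChIP-seq peak lists of 3 replicates of Blimp-1-GFP embryos were analysed as deposited. Per the labels and the deposited notes, reads were aligned to dm6 and peaks were called with 1 control alignment for all replicates, so noise of that control is common to them. No name of the aligner or caller, and no IDR cut-off, is given in the sources used here. The authors deposited 30000 peaks per replicate and 9515 IDR-thresholded peaks. Column 7 of the deposited lists is a signal value of undefined scale, used for ranking and description inside each list. The lists hold no read counts, so depth is unknown, and Wilson 95% intervals cover counting error only.

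Gene models came from Ensembl release 115 (19607 distinct TSSs of 13945 protein-coding genes; pseudogenes and transposable elements were left out) and sequence from RefSeq's Release 6 assembly, which holds all peak ends. Coordinates are 1-based. Offsets run along the gene from its nearest TSS. Sequence patterns (13) were searched on both strands in 101-bp windows at the summit and 500 bp away. The 3 replicates, cut to their 9515 strongest peaks, gave each mean ± SD. Tests over peaks were two-sided exact McNemar and Fisher tests with Benjamini-Hochberg adjustment and a threshold of 0.05; a test over peaks treats each peak as a unit. The code was tested on simulated promoters. Genes were named by rank: the 12 strongest peaks, the 6 strongest with the Blimp-1 site, the 3 strongest with the DREF, M1BP or TATA word, the 2 strongest of each list with at least 5 genes, and the 3 genes with most peaks; others were added after their values had been seen. Of these, peaks on 1 chromosome arm are given without sequence. A result that the naming rule selects is not reported here. The rule, the lists and the tests were chosen with earlier results of these data known. Of 421 symbols or symbol patterns in the gene lists, 15 matched no protein-coding gene of the annotation and were left out. Alternatives were other TSS distances (250 and 1000 bp), windows (25 and 100 bp), matching distances (50 and 200 bp), the 4757 strongest peaks, protein-coding transcripts alone, full replicate lists and leaving out each replicate. Leaving out a replicate kept the listed peaks matched in both others, so peaks without such matches were dropped too. Python 3.11.15, NumPy 2.4.6, pandas 2.3.3 and SciPy 1.17.1 were used.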

Additional observations from a re-analysis of the deposited data

How the results depend on the processing

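The share of peaks at single promoters was 16% with a distance of 250 bp, 27.3% with 1000 bp and 23.1% among the 4757 strongest peaks, where 7.01% of protein-coding genes had such a peak. The median offset was -87, -139 and -155 bp under these settings and -143 to -142 bp without 1 replicate. Tests passing between classes numbered 8 among the 4757 strongest peaks, 7 with windows of 25 bp and 8 to 10 without 1 replicate. The Blimp-1 site against peaks at no TSS no longer passed with 1000 bp (odds ratio 0.873), windows of 25 bp (0.797) or 100 bp (0.831), or without replicate 3 (0.702 to 0.751 without 1 replicate). The DREF word against shared promoters reversed without passing at 250 bp (1.69) and passed at 1000 bp (0.443) and in windows of 100 bp (0.351). The M1BP word against shared promoters did not pass at 250 bp (0.729), in the 4757 strongest (0.568) or without 1 replicate (0.514 to 0.758), and against no TSS did not pass in the 4757 strongest (2.41) or in windows of 25 bp (3.75). The PRDM1 word against no TSS turned to 1.02 at 1000 bp, and the TATA box against no TSS to 1.00 in windows of 25 bp. The cause was not tested. The share matched in all replicates was 56.6% within 50 bp, 73.8% within 200 bp, 89.3% in the full lists and 74.2 to 79.6% with 1 replicate fewer. The Blimp-1 site at downstream against upstream summits passed under every alternative run (odds ratios 2.60 to 3.86), and restricting TSSs to protein-coding transcripts changed no value. No paired analysis was possible because there is 1 group. Unknown depth and the undefined signal scale limit comparisons between replicates.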
